A study of Drosophila melanogaster with 15 samples.

Results

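The genes described here are 6 *Drosophila melanogaster* genes for transcription factors with a BTB domain, taken by their gene IDs from 3 full-length cDNA assemblies: *mod(mdg4)* (FBgn0002781), *ttk* (FBgn0003870), *fru* (FBgn0004652), *br* (FBgn0283451), *mamo* (FBgn0267033) and *chinmo* (FBgn0086758). They were 6 of 11848 genes with a FlyBase ID in the assemblies, and they accounted for 292 of 100276 isoforms of such genes. All flies were of the wild-type strain w1118 and untreated. Heads came from 3-day-old adults (6 libraries), embryos were collected 14 to 16 h or 18 to 20 h after egg laying (3 libraries each, 50 embryos per replicate), and ovaries came from 3-day-old virgin females (3 libraries, 20 ovaries per replicate). The labels do not give the sex of heads and embryos, and the study's methods state that males and females were used in equal amounts apart from the ovaries. The libraries of a tissue, and both embryo ages, were pooled into 1 assembly by the authors, so each tissue is a single list of transcript models without read numbers.

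A BTB domain lets a protein bind to itself or to other BTB proteins. In this family the domain is usually encoded near the 5′ end of the mRNA, and C2H2 zinc fingers, pairs of cysteines and histidines around a zinc ion that contact DNA, often lie in the last exons. A gene that joins the same BTB exons to alternative 3′ exons can therefore make proteins with a shared partner domain and different DNA-binding ends. *mod(mdg4)* is a chromatin gene with roles in insulators and position-effect variegation, and is known for trans-splicing, the joining of exons from separate precursor RNAs. *ttk* encodes repressors of neuronal fate, *fru* directs male courtship, *br* is an early target of the moulting hormone ecdysone, *mamo* is required in the female germline, and *chinmo* sets the temporal identity of neurons.

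An isoform is 1 transcript model of the assembly. A transcription start site (TSS) groups 5′ ends of a gene until a gap of over 50 nt, a poly(A) site (PAS) groups 3′ ends until a gap of over 150 nt, and a terminal exon is a last exon named by its 3′ splice site (acceptor, within 10 nt). Numbers of isoforms count models and are not RNA levels. No spread between replicates and no p-value can be given for them, and the order of the tissues in any count below was not tested. The study gives the heads the greatest read depth, and the part of depth in higher counts there cannot be told apart from tissue. The assemblies of heads, embryos and ovaries held 74482, 20701 and 13398 isoforms, and 11280, 6525 and 6690 genes with a FlyBase ID. Of 18 marker genes, the photoreceptor genes *ninaE* and *trp* had 11 and 70 isoforms in heads and were listed at 0 in embryos and ovaries. The follicle cell genes *Cp36* and *Vm26Aa* had 2 and 3 isoforms in ovaries only. The germline gene *osk* had 5 isoforms in ovaries and 2 in heads, *otu* had 6 in ovaries and 1 in embryos, and *nos* was listed at 0 in all 3 assemblies. *dj* and *Mst87F*, genes of the testis, had 5 and 2 isoforms in heads. The muscle gene *Mhc* had 255, 118 and 2 isoforms in heads, embryos and ovaries, and the muscle gene *up* had 126, 21 and 2. Models of muscle genes were thus present in all 3 assemblies, with few in ovaries.

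The sequences that mark the ends discussed below were read from the RefSeq copy of the dm6 genome. The first pair are stretches of the *fru* exon that is spliced differently in the sexes, at chr3R:18513667-18513696 and chr3R:18513632-18513661 (minus strand), with capitals on the 13 nt repeat that the splicing factors Tra and Tra-2 bind, a repeat known from *dsx*. The next pair are the 5′ splice sites of the long and short form of that exon, at chr3R:18513436-18513465 and chr3R:18515037-18515066, with capitals on the intron's GT.
*fru* repeat 1: agagagataTCATCAATCAACAttcccgtg
*fru* repeat 2: aggagctgcTCTTCAATCAACActcaaccc
*fru* long form donor: ccaccaactggcgcgGTaagtgaagagcca
*fru* short form donor: gcccgcatcccctagGTaagcctccccacc

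The following 3 are the TSSs of the members with the initiator letters TCAGT (capitals) within 5 nt of the start. They lie at chr3R:31713852-31713881 and chr3R:31725765-31725794 (*ttk*, plus strand) and chrX:13933329-13933358 (*mamo*, minus strand).
*ttk* TSS 1: catgctattcccagcTCAGTtcgtgccgtg
*ttk* TSS 3: aggactttgacttgtTCAGTctctcgccag
*mamo* TSS 4: gcctgctgcggttTCAGTtgtcattttact

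The last set shows 3′ ends that several isoforms shared and that carry the poly(A) signal AATAAA (capitals). It lay 22 and 16 nt before the ends of the *ttk* terminal exons, 15 and 22 nt before the *mod(mdg4)* ends, 17 nt before the *fru* end, 22 nt before the *chinmo* end and 12 nt before the *br* end. The stretches are chr3R:31732729-31732758 and chr3R:31735359-31735388 (*ttk*, plus), chr3R:21370104-21370133 and chr3R:21354450-21354479 (*mod(mdg4)*, minus), chr3R:18425073-18425102 (*fru*, minus), chr2L:1697798-1697827 (*chinmo*, plus) and chrX:1645133-1645162 (*br*, plus).
*ttk* PAS 31732768: caacagaagaaaAATAAAatacacaatgca
*ttk* PAS 31735392: aaacgagtttttAATAAAgaaaattttact
*mod(mdg4)* PAS 21370102: ttaaccatgaagAATAAAatgtttctttag
*mod(mdg4)* PAS 21354441: aatccacttttaAATAAAtgactgctttta
*fru* PAS 18425069: ttaactttacttAATAAAtctctttcaaat
*chinmo* PAS 1697837: agtacctgcaacAATAAAatagtataaaaa
*br* PAS 1645162: cattatatttacAATAAAcgtctacacatt

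The 6 genes differed in which tissue held their isoforms. *mod(mdg4)* (chr3R:21350846-21377401, minus strand) had 62 heads isoforms, 14 from embryos and 25 from ovaries. *ttk* (chr3R:31713867-31735392, plus) had 11, 16 and 9, the most even set among the members. *fru* (chr3R:18414273-18545586, minus) had 23, 1 and 0, so that nearly all of its models came from heads. *br* (chrX:1575132-1664869, plus) had 14, 7 and 2 isoforms. *mamo* (chrX:13846116-13990527, minus) had 48, 0 and 3. *chinmo* (chr2L:1651258-1704682, plus) had 19, 36 and 2, and was with *ttk* a member with more isoforms in embryos than in heads. As a share of all isoforms of genes with a FlyBase ID, the members made up 0.257%, 0.397% and 0.32% in heads, embryos and ovaries. A gene had a median of 2, 1 and 1 isoforms in these assemblies, and the members present a median of 21, 14 and 3.

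**Figure D1:**
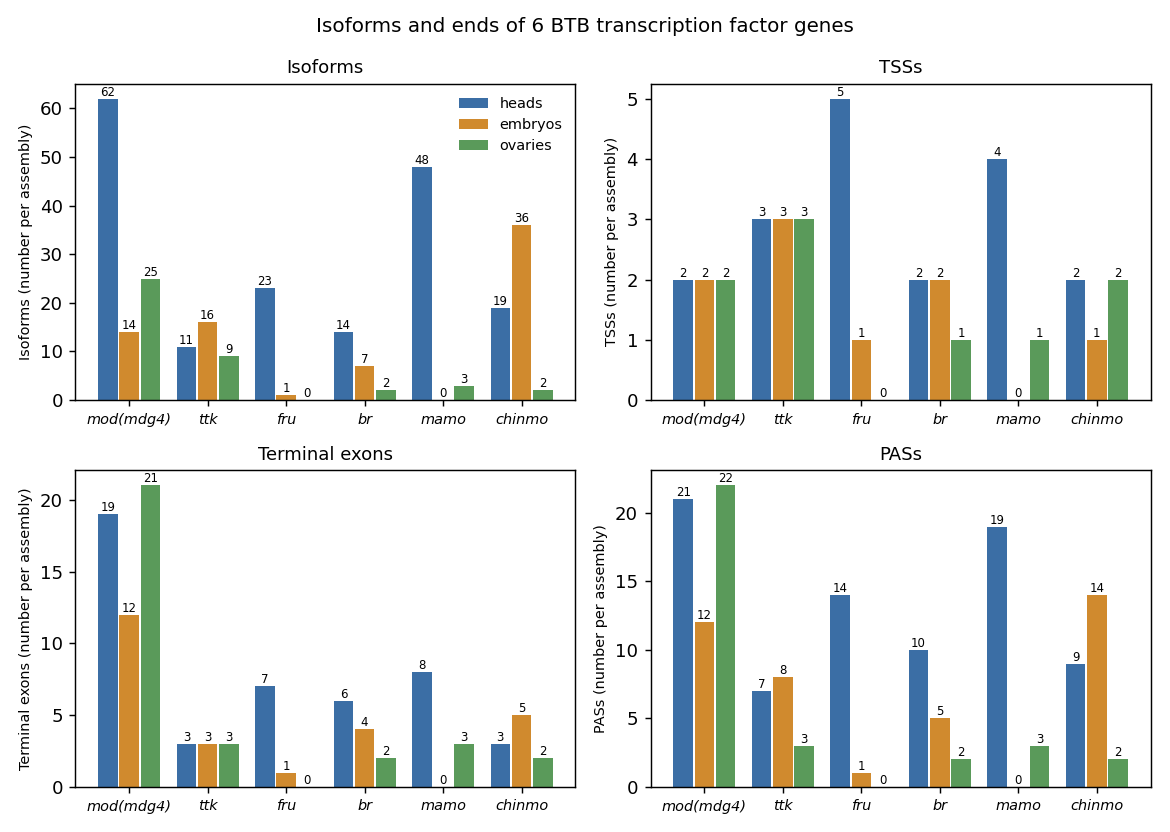
Bars give the number of isoforms, TSSs, terminal exons and PASs per gene (horizontal axes) in the heads, embryos and ovaries assemblies. *mod(mdg4)* had most terminal exons in each tissue, *fru* and *mamo* had most of their isoforms in heads, and *chinmo* had most isoforms in embryos.

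The members carried several ends more often than the share of all genes. At least 2 TSSs were found for 6 of 6 members in heads, 3 of 5 in embryos and 3 of 5 in ovaries, against 17.4%, 12.8% and 8.42% of all genes in the same assemblies. At least 2 terminal exons were found for 6 of 6, 4 of 5 and 5 of 5 members, against 38.6%, 24.1% and 12.1%. At least 2 PASs were found for 6 of 6, 4 of 5 and 5 of 5, against 37.4%, 26.1% and 16.9%. The member below the threshold for terminal exons and PASs in embryos was *fru*, with 1 isoform there. Since the genes were taken for their alternative ends, these counts describe the set. Summed over the members, heads, embryos and ovaries held 18, 9 and 9 TSSs, 46, 25 and 31 terminal exons, and 80, 40 and 32 PASs. Of 56 terminal exons in all, 36 had an acceptor of an annotated last exon (Ensembl release 115), and 20 did not.

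The promoters of the members fell on known starts. Of 19 TSSs, 18 lay at an annotated transcript start of the same gene ID, with a distance of 0 nt. The exception was the inner start of *mod(mdg4)* at 21359768, 17633 nt from the start annotated for that gene ID. It is the annotated 5′ end of minus-strand pre-*mod(mdg4)* units with gene IDs of their own, such as B and G, described below. The authors kept only 5′ ends with support in the Eukaryotic Promoter Database, which limits TSSs to promoters listed there. TATAAA was found on the sense strand in the 50 nt upstream of 0 of 19 member TSSs, beside 7.31%, 6.49% and 3.91% of all TSSs in heads, embryos and ovaries. TCAGT, searched on the sense strand, was found at 3 of 19 (15.8%), the starts printed above, beside 9.47%, 12.5% and 6.48%.

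*fru* had the most TSSs of the members. The first, at 18545586, known as P1, is the start whose transcripts are spliced by sex. It headed 11 isoforms in heads and was listed at 0 in embryos and ovaries. TSS 2 at 18506562, 39024 nt downstream, headed 7 heads isoforms. TSS 4 at 18447329 and TSS 5 at 18438771, 98257 and 106815 nt from the first, headed 3 and 1, also in heads. TSS 3 at 18450254 headed 1 isoform in heads and the single one of embryos. Each start used 1 first exon, with 5′ leaders of 485, 43, 42, 651 and 94 nt from TSS 1 to TSS 5. The annotation gives *fru* 5 start codons.

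The starts of *br* separated ovaries from the other tissues. TSS 1 at 1575133 headed 8 isoforms in heads and 1 in embryos, and TSS 2 at 1608870, 33737 nt downstream, headed 6 in each. TSS 3 at 1612309 headed both ovary isoforms and none elsewhere. Its leader of 880 nt was shorter than the medians of 996 and 997 nt from TSS 1 and TSS 2, and all 3 starts led to the same start codon. With 2 ovary isoforms in all, the tissue of this start rests on few models.

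*mamo* used 4 starts in heads and 1 in ovaries. TSS 1 at 13990527, TSS 2 at 13988831, TSS 3 at 13986442 and TSS 4 at 13933343 headed 8, 14, 13 and 13 heads isoforms. The 3 ovary isoforms all began at TSS 2. The leaders were long, with medians of 1743, 1972 and 1757 nt from the first 3 starts and 882 nt from TSS 4, which lies 57184 nt downstream of the first. A first exon of 3618 nt gave leaders up to 4442 nt from TSS 2.

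*chinmo* and *ttk* used their starts in several tissues. TSS 1 of *chinmo* at 1651259 headed 18, 36 and 1 isoforms in heads, embryos and ovaries, and TSS 2 at 1667848 headed 1, 0 and 1. TSS 1 joined 4 alternative first-exon donors and gave leaders of 1736 to 3099 nt, whereas TSS 2 gave 656 to 708 nt. *ttk* had 3 TSSs in every assembly: 31713868 with 3, 5 and 2 isoforms, 31724997 with 5, 10 and 3, and 31725781 with 3, 1 and 4. Their median leaders were 562, 495 and 252 nt, all before the same start codon.

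*mod(mdg4)* stood at the other end, with 1 promoter for nearly all models. TSS 1 at 21377401 headed 61 of 62, 12 of 14 and 24 of 25 isoforms in heads, embryos and ovaries. All 97 isoforms from it had a first exon of 114 nt and a leader of 158 nt. The 4 others began at 21359768 and held no annotated start codon of the gene. That position is also the start of isoforms that the assembly assigned to pre-*mod(mdg4)* units, described below.

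The models joined TSS 1 of *mod(mdg4)* to 25 terminal exons, and do not tell trans-splicing from the splicing of 1 precursor. Of these exons, 19 were used in heads, 12 in embryos and 21 in ovaries. In ovaries this was the highest number of any of 6690 genes. *lola*, another BTB gene with many 3′ exons, followed with 17 there, and came first in heads and embryos with 24 and 22, where *mod(mdg4)* ranked 2 and 5. Of the 25 exons, 9 were found in all 3 assemblies, 7 in heads and ovaries, 2 in embryos and ovaries, 3 in heads only, 3 in ovaries only and 1 in embryos only. Ovaries thus held as wide a choice of last exons as heads, with fewer isoforms.

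Each annotated *mod(mdg4)* transcript ends at a stop codon of its own, 22 in all. Starting from the annotated start codon and reading through each isoform's exons, 21 of these stops were reached in heads, 11 in embryos and 22 of 22 in ovaries. The proteins ran from 473 codons (transcript RJ) to 603 codons (RE). Stop 21358375 (RL, 476 codons) was the one reached in ovaries only. Only the protein of RD (stop 21353381, 520 codons) held a C2H2 pattern, 1 of it. Many of the other ends of this gene are known to carry a related zinc-binding motif, FLYWCH, which the search did not cover.

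In heads, many *mod(mdg4)* isoforms passed through 1 annotated stop codon and then went on to splice into another, more distal last exon. Of 48 heads isoforms that reached an annotated stop codon, 29 (60.4%) did so before the last intron, against 12.7% of all such isoforms in the assembly. In embryos it was 1 of 11 (9.09%, against 7.72%), an isoform with the stop and annotated last exon of RB. In ovaries it was 2 of 23 (8.7%, against 6.05%). For *lola* it was 3 of 85 in heads, 0 of 46 in embryos and 0 of 46 in ovaries, and for the other 5 members 1 of 67, 1 of 32 and 0 of 11. With 1 assembly per tissue these shares have no replicate error, and the pattern was singled out after the values were seen. When only ends within 150 nt of an annotated 3′ end were kept, the shares were 65.5%, 11.1% and 0%.

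The 29 heads isoforms combined 14 stop codons with 8 last exons in 16 pairs. The last exon at 21354694 (annotated for RG and RH) closed 12 of them and the exon at 21351243 (RAF) 9. The stretch from the stop codon of the own reading frame to the 3′ end, introns removed, was 501 to 5151 nt long with a median of 2283 nt. Stop 21355964 (RB) was reached by 5 heads isoforms, 1 embryo isoform and 1 ovary isoform. Of the 5 heads isoforms, 4 spliced further, to the exon at 21354694. The annotated transcripts RB and RH also have their stop codon before the last intron, with last exons at 21355557 and 21354694. The 1 heads isoform that reached the stop of RH ended in that annotated last exon. Stops 21357152 (RJ) and 21358746 (RK) were each reached by 4 heads isoforms, all 4 of which spliced further. In ovaries the same stops were reached by 1 isoform each, with the stop in the last exon.

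**Figure D2:**
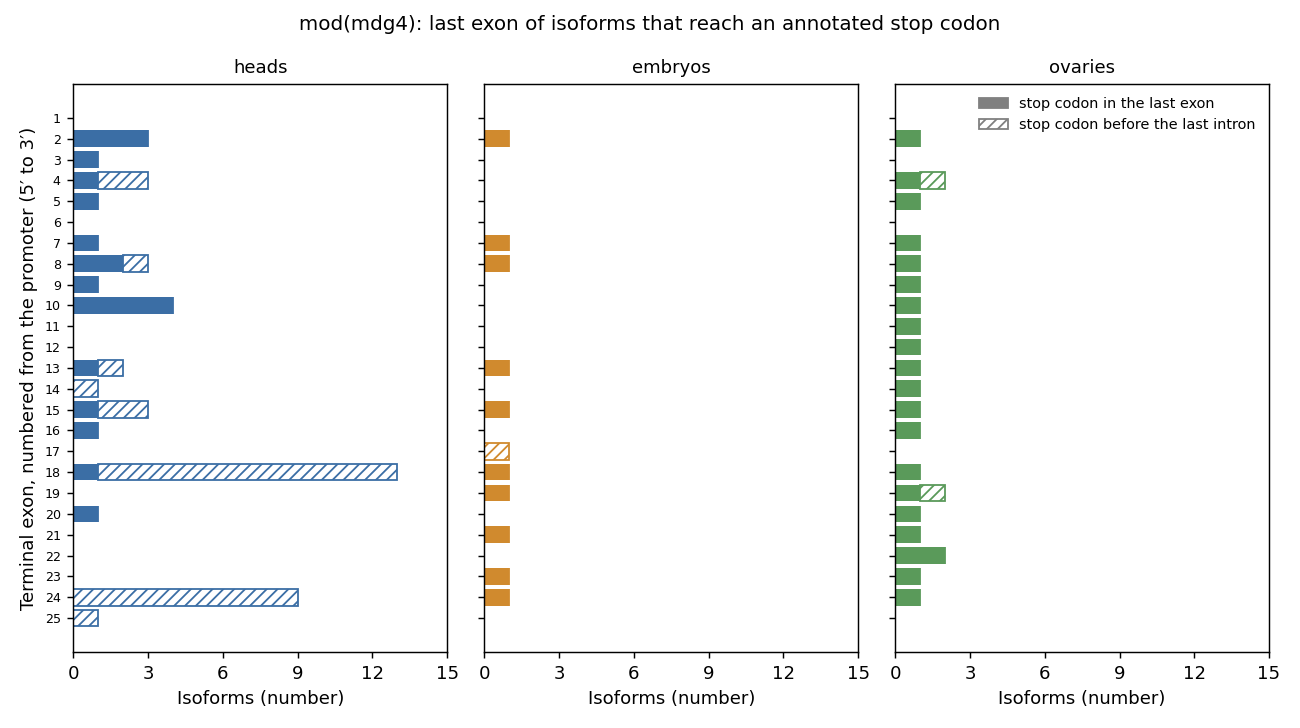
Bars give the number of *mod(mdg4)* isoforms per terminal exon, numbered 1 to 25 from the promoter, for isoforms that reached an annotated stop codon in heads, embryos and ovaries. Filled bars have that stop in the last exon and hatched bars before the last intron. Heads have 29 hatched isoforms, 12 of them in exon 18 and 9 in exon 24, and ovaries have mostly 1 filled isoform per exon.

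The most distal 3′ end of most shared *mod(mdg4)* exons lay further downstream in heads. Of the 4 heads isoforms with the exon of RI at 21356704, 3 ended at 21356356, as in embryos and ovaries, and 1 reached 21353355, 3001 nt further, where A-rich sequence (at least 12 A in the next 20 nt) follows. The exon of RC at 21364645 had 1 isoform per tissue, which reached 21361992 in heads, and stopped at 21364480 in embryos and 21364376 in ovaries. The exon of RAB at 21364375 ended at 21364020 in embryos and ovaries, whereas its 3 heads isoforms ended at 21361992, 21362132 and 21362969. The most distal heads end of RC and RAB lay downstream of the acceptors of RE and RM at 21363884 and 21362868. In RN the most distal end was 21370102 in heads and embryos. The single ovary end of RN, 21372174, was also listed in heads. The most distal ends of RS, RJ and RAC were at the same position in each assembly that held them, and RAC had a second, more proximal ovary end at 21354096.

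Along *mod(mdg4)* the annotation lists 23 pre-*mod(mdg4)* units, the separate precursors whose exons are joined to the common 5′ exons by trans-splicing. Of these, 15 had isoforms, which numbered 60, 8 and 5 in heads, embryos and ovaries. On the plus strand, opposite to the gene, they had 32, 3 and 3 isoforms, of which 31, 2 and 2 began at 21365610. On the minus strand they had 28, 5 and 2, of which 21, 5 and 2 began at 21359768. RefSeq lists 31 mRNAs for the gene, marks 23 of them as trans-spliced and draws exons of 9 on both strands. The plus-strand exons were held by models of these units, for example the exon at 21367363-21367688 by 23, 2 and 2 models and the exon at 21366004-21366338 by 22, 1 and 2. Each isoform of the assembly lies on 1 strand, so a molecule with exons of both strands was not analysed here.

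A single heads isoform of *mod(mdg4)* ended inside the next gene, *aus* (FBgn0038881, same strand). It had 7 exons and 5016 nt, reached stop 21351029 (RAF, 499 codons) and then spliced over an intron of 5347 nt to a last exon at 21343048 that ended at 21342322. The assembly assigned 24, 8 and 1 further isoforms that share an intron with *mod(mdg4)* to *aus* itself, out of 27, 8 and 1 isoforms of that gene. The last intron of the heads isoform above lies within the span of *aus*, chr3R:21318300-21349601. Models of *aus* that share that intron may therefore hold no other part of *mod(mdg4)*. Counting by shared introns instead of gene ID would add such *aus* models, and models from 8 pre-*mod(mdg4)* units.

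*ttk* ended in 4 terminal exons, of which the same pair was used in all 3 tissues. The exon at 31729632 (RC, RD, RF and RH) encodes the end of a protein of 643 codons with 2 C2H2 fingers and had 7, 8 and 4 isoforms. The exon at 31732920 (RA, RB, RE and RG) gives 813 codons and 1 finger by the pattern searched, and had 2, 5 and 4. The stop codons of the exons were reached by 5, 6 and 4 and by 2, 3 and 4 isoforms. The shorter protein thus had more models in heads and embryos and as many in ovaries. The exon of the 813-codon form ended most distally at 31735392 in every tissue, 896 nt from the stop codon. An embryo isoform with this exon ended earlier, at 31734819. The exon of the 643-codon form had 7 PASs. The end at 31732768 was found in every tissue, and 1 heads isoform ran on to 31733144, for a 3′ UTR of 2446 nt. More proximal ends lay at 31730741, 31731825 and 31732135 in embryos, at 31732135 and 31732517 in heads and at 31731422 in ovaries. The 2 remaining exons had no annotated acceptor, 31727132 with 2 heads isoforms and 31728392 with 3 embryo isoforms and 1 ovary isoform. In 4 heads, 7 embryo and 1 ovary isoforms of *ttk* the reading frame ended at a stop codon that is not annotated.

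*fru* had 7 terminal exons in heads, of which 5 are annotated and carry different ends of the protein. The exon at 18427166, shared by 7 annotated transcripts, had 8 isoforms, of which 6 reached its stop codon with 854 to 955 codons and 1 finger. The exon at 18417300 (RB and RF) had 5 heads isoforms and the embryo isoform, of which 3 and 1 reached its stop with 688 to 789 codons and 1 finger. The exon at 18423182 had 3 isoforms, of which 1 gave 796 codons with 2 fingers and 2 held the long exon described below. The exons at 18432034 (RD) and 18430964 (RA) had 2 isoforms each and no finger. The longest *fru* stretch from an annotated stop codon in the last exon to the 3′ end, 4385 nt, lay in the exon at 18423182. The most shared end was 18425069, used by 6 heads isoforms and printed above.

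The second exon of P1 transcripts, where males and females splice differently, was present in heads in its short and its long form. The short form of 292 nt was held by 5 heads isoforms, as by 4 annotated transcripts, and led to proteins of 526 to 955 codons. The long form of 1893 nt was also held by 5 isoforms and 4 annotated transcripts, and the frame from the same start codon ended after 94 codons. The long form is known as the female one. A further isoform of 2 exons ended at 18508710, inside the intron that follows, with a last exon of 6634 nt. The stretch found in the long form only holds the repeats printed above, at chr3R:18513675-18513687 and chr3R:18513640-18513652, 224 and 189 nt before the long-form splice site. Of 83476 windows of 1601 nt, 111 (0.133%) held at least 1 match to the repeat and 4 (0.00479%) at least 2. Per the study's methods the heads held both sexes, and since the assembly pools them, the forms were not assigned to males or females.

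*br* had 7 terminal exons. Every *br* isoform that reached an annotated stop codon encoded 2 C2H2 fingers, the pair that distinguishes the proteins of this gene. The exon at 1643068 (RG and RO, 663 codons) had 3, 1 and 1 isoforms in heads, embryos and ovaries. The exon at 1642885, whose stop codon is the same and whose protein has 724 codons, had 1 ovary isoform only. The exon at 1647365 (880 codons) had 3 heads isoforms and no other, and carried the longest stretch of the members from an annotated stop codon in the last exon to the 3′ end, 4685 nt. The exon at 1658788 (702 codons) had 3 heads and 4 embryo isoforms. A further stop codon, 1654640 (RJ and RL, 514 codons), was reached by 1 heads and 1 embryo isoform that spliced on to the exon at 1658788, with 4117 and 4110 nt from stop to end. Stops 1649104 (RP) and 1655030 (RR) were reached by 0 isoforms. The exons at 1604926, 1624138 and 1637284 have no annotated acceptor. The first closed 2 heads isoforms of TSS 1 that lack the annotated start codon, and the frame ended after 94 codons in the second and 484 codons with 0 fingers in the third.

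*mamo* had 8 terminal exons, 3 of them annotated, and the number of fingers rose with the distance from the promoter. The exon at 13883364 (RC) had 10 heads isoforms, of which 9 reached its stop, with 799 codons and 0 fingers. The exon at 13869705 (RD, RE, RF and RG) had 17 isoforms, of which 15 reached its stop, with 1087 to 1109 codons and up to 4 fingers. The exon at 13854372 (RH and RI) had 4 isoforms with 1553 codons and 6 fingers. These ends were listed in heads only. The 3 *mamo* isoforms of ovaries ended in the exons at 13968073, 13901643 and 13871268, which are not annotated as last exons, and reached 0 annotated stop codons. The first 2 of these exons had 4 and 9 isoforms in heads. Ends followed by A-rich sequence, where the reverse transcription primer can start inside an RNA, were 10 of 29 distinct *mamo* ends (34.5%). Their part in the early ends was not tested.

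*chinmo* used 1 coding last exon. The exon at 1695649 (6 annotated transcripts) had 13, 22 and 1 isoforms, and its stop 1696147, for 604 codons and 2 fingers, was reached by 9, 17 and 1. The stop of RE and RF at 1696855 was reached by 0. The other 4 last exons, with acceptors 1652775, 1670144, 1690117 and 1695439, are not annotated as such. The exon at 1670144 had 4 heads and 7 embryo isoforms, none with the start codon, and the exon at 1690117 had 2 and 4, whose frame ended after 42 codons. In all, 4 heads, 10 embryo and 1 ovary isoforms of *chinmo* lacked the annotated start codon. The coding exon ended most distally at 1698617 in each tissue, 2468 nt from the stop. The more proximal PAS at 1697837, printed above, was shared by 6 heads and 7 embryo isoforms, of which a heads isoform ended at 1697971. A-rich sequence follows the ends at 1698617 and 1697837.

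Read from the annotated start codon, 115 of 177 member isoforms in heads, 43 of 74 in embryos and 34 of 41 in ovaries reached an annotated stop codon. Another stop codon ended the frame in 47, 17 and 3, the frame stayed without a stop in 4, 2 and 1, and 11, 12 and 3 lacked the start codon. In heads, *mamo* and *chinmo* made up 8 of the 11 isoforms without start codon, and *br* another 2, from its exon at 1604926. In embryos *chinmo* made up 10 of 12. In ovaries 23 of 34 isoforms with an annotated stop were from *mod(mdg4)* and 8 from *ttk*.

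**Figure D3:**
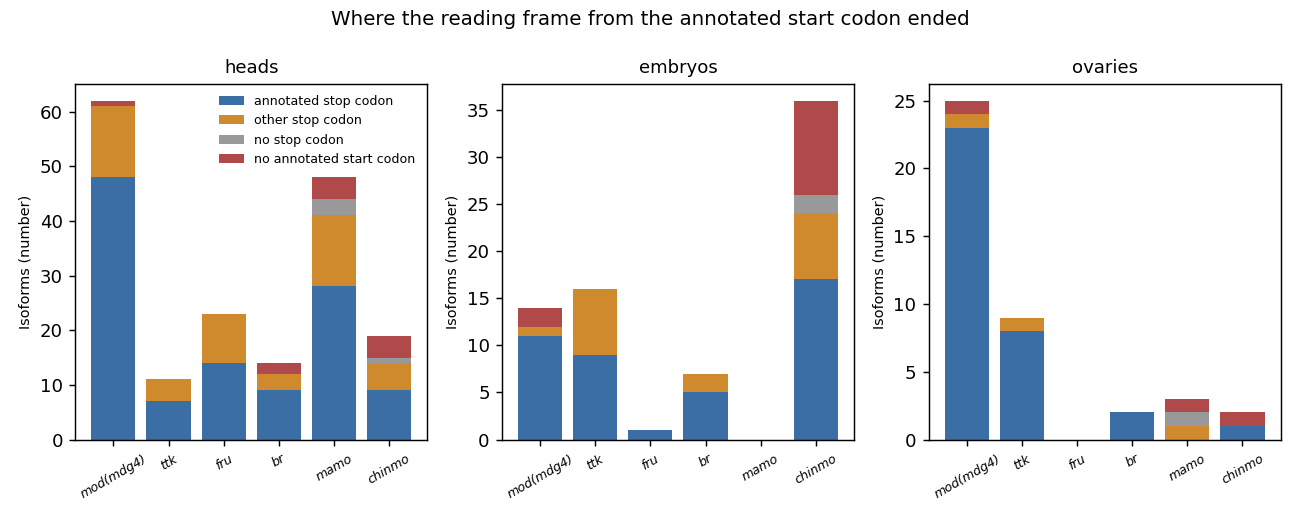
Stacked bars give the number of isoforms per gene in heads, embryos and ovaries (each panel with its own vertical scale) by where the reading frame from the annotated start codon ended. Annotated stop codons closed 48, 11 and 23 *mod(mdg4)* isoforms, and 10 of 36 *chinmo* isoforms in embryos had no annotated start codon.

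For terminal exons seen in 2 tissues, the most distal 3′ end in each was compared. Of 19 exons of the members shared by heads and embryos, 12 reached over 150 nt further in heads, where the share among all shared terminal exons was 27.5%, and 1 reached further in embryos (background 6.56%). Of 23 shared by heads and ovaries, 18 reached further in heads (background 30.8%) and 0 in ovaries (background 2.43%). Of 17 shared by embryos and ovaries, 4 reached further in embryos (background 18.8%) and 2 in ovaries (background 7.7%). *mod(mdg4)* gave 7 of its 9 exons shared by heads and embryos, and 13 of its 16 shared by heads and ovaries, to the count further in heads. In the other members, the *fru* exon at 18417300 reached 1378 nt further in heads than in embryos. The *br* exon at 1643068 reached 1522 nt further in heads, to an end followed by A-rich sequence, while the *br* exon at 1658788 reached 228 nt further in embryos. The 3 *mamo* exons shared by heads and ovaries all reached further in heads, by 6076, 7539 and 1681 nt. These *mamo* exons had 1 ovary isoform each and are not annotated as last exons. The coding exon of *chinmo* and the 813-codon exon of *ttk* differed by 0 nt between tissues. The most distal end of that *chinmo* exon is followed by A-rich sequence. Without ends followed by A-rich sequence, the counts further in heads were 11 of 17 and 15 of 20. When only ends with AATAAA in the 50 nt upstream were used, 3 of 9 exons reached further in heads than in embryos and 3 of 10 further than in ovaries. The backgrounds above cover all ends, and no share over all shared terminal exons was computed with either filter. A higher share in the members than in all genes is therefore not shown for ends with AATAAA. Deeper reading gives more ends per exon, and its part in these differences cannot be told apart from tissue.

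**Figure D4:**
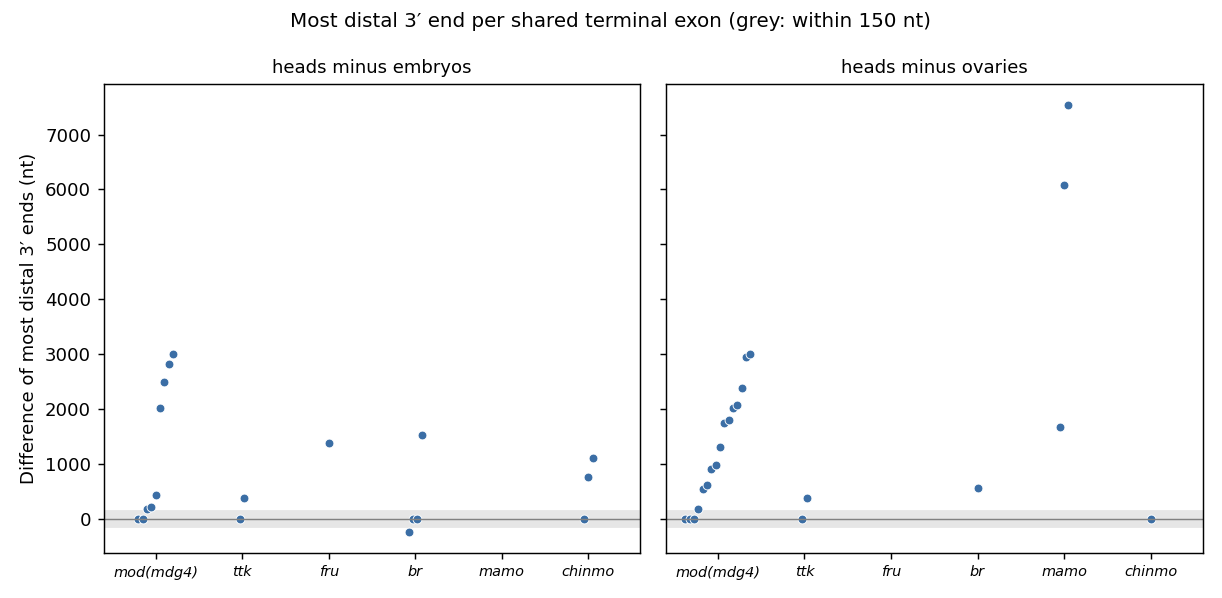
Each point is 1 terminal exon shared by heads and embryos (left) or heads and ovaries (right), placed by gene. The vertical axis gives the position of the most distal 3′ end in heads minus that in the other tissue in nt along the transcript, and the grey band covers 150 nt either way. Points of *mod(mdg4)* reach 3001 nt in both panels and those of *mamo* 7539 nt.

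The 3′ UTR, measured from the first annotated stop codon in the last exon, had a median of 1086 nt in heads (144 isoforms with a value), 1082 nt in embryos (54) and 346 nt in ovaries (35). With the most downstream annotated stop codon of the exon, the heads median was 655.5 nt. Of the 35 ovary isoforms 23 were from *mod(mdg4)*, whose median was 152 nt there, 660 nt in heads and 77 nt in embryos. From the stop codon of the own reading frame, annotated or not, the *mod(mdg4)* medians over 61, 12 and 24 isoforms of heads, embryos and ovaries were 1814, 86.5 and 142 nt. From the first annotated stop codon in the last exon, the *ttk* medians were 1819, 1012 and 896 nt. Those of *chinmo* were 2004, 1688 and 2468 nt, the last from a single isoform. From the stop codon of the own reading frame, the medians were 2070, 1998.5 and 896 nt in *ttk*. In *chinmo* they were 2365.5, 1662 and 2468 nt.

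The members had 108 PASs, of which 31 had an annotated 3′ end no more than 150 nt away, 19 of them in *mod(mdg4)*. A total of 10 PASs were found in all 3 assemblies, 50 in heads only, 15 in embryos only and 9 in ovaries only. AATAAA stood in the 50 nt upstream of 30.1% of the members' 93 distinct ends in heads, 34.9% of 43 in embryos and 42.4% of 33 in ovaries, beside 33.6%, 40.2% and 42.6% of all ends. A-rich sequence followed 20.4%, 11.6% and 12.1% of the members' ends, beside 6.67%, 8.61% and 6.66% of all. The genes differed in this measure. A-rich sequence followed 1 of 40 distinct ends of *mod(mdg4)* (2.5%) and 1 of 13 of *ttk*, but 5 of 14 of *br* (35.7%) and 10 of 29 of *mamo*. It followed 2 of 15 of *fru* and 3 of 23 of *chinmo*, among them the *chinmo* ends at 1697837 and 1698617. The part of such ends in the tissue patterns of *br*, *mamo* and *chinmo* was not tested.

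Start and end were joined in many ways. In heads, *br* showed 10 of the 12 pairs that its 2 TSSs and 6 terminal exons allow, *mamo* 22 of 32, *ttk* 7 of 9, *chinmo* 4 of 6, *mod(mdg4)* 20 of 38 and *fru* 15 of 35. In *fru* the exon at 18423182 was joined to P1 only, with 3 isoforms, and the exon at 18427166 to 4 of 5 starts. The exon at 18432034 was joined to TSS 2 and TSS 4, and P1 was not listed with it. In *mamo* the exon with 6 fingers was joined to TSS 2, TSS 3 and TSS 4 and the exon with up to 4 fingers to all starts. In *ttk*, both coding exons were joined to TSS 1 and TSS 2 in each tissue, whereas TSS 3 was joined to the 813-codon exon in ovaries only, by 2 isoforms. The 4 unannotated last exons of *chinmo* were listed with TSS 1 only, and TSS 2 with the coding exon. These are counts of models, and a pair that is not listed may still be made.

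**Figure D5:**
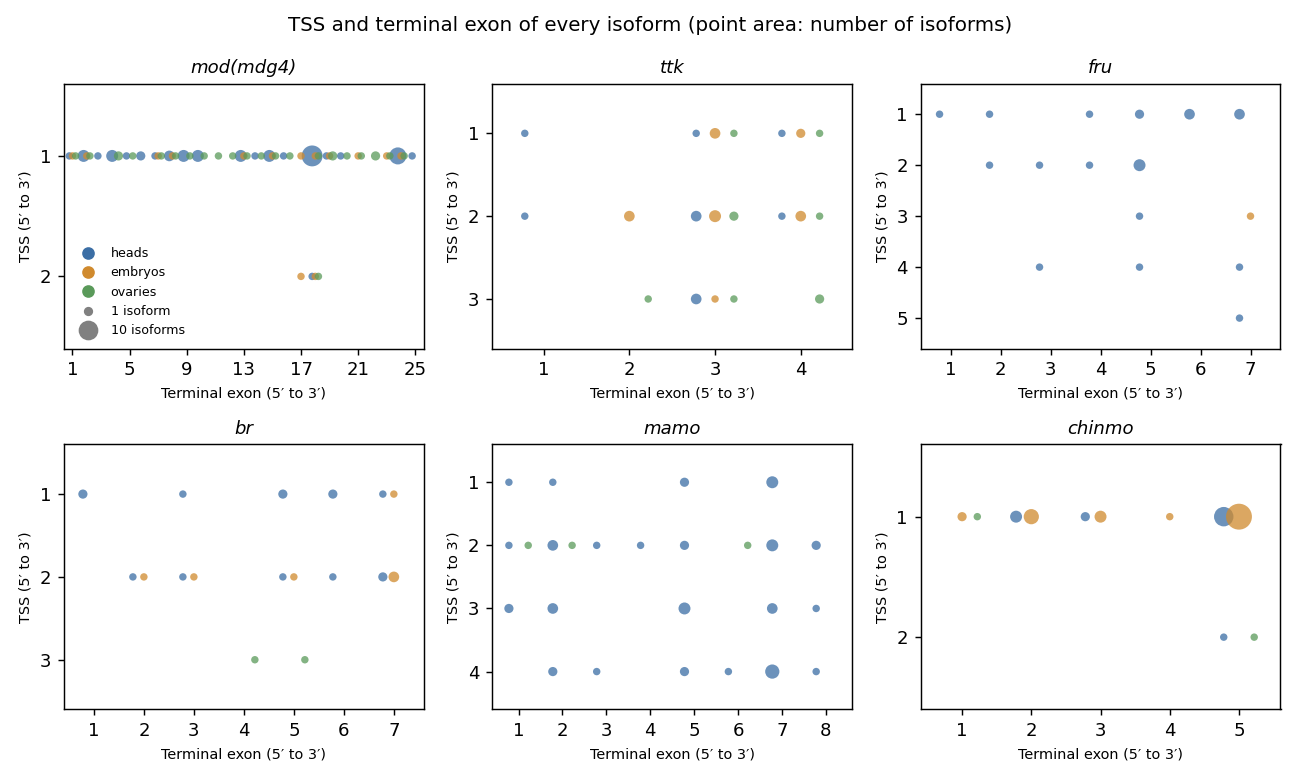
Each point is a pair of TSS and terminal exon of a gene, both numbered 5′ to 3′, and its area gives the number of isoforms in heads, embryos or ovaries. The *mod(mdg4)* points lie almost entirely on TSS 1, while *br* in heads fills 10 of 12 pairs and *br* in ovaries uses TSS 3 alone.

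Of 15 other BTB gene names listed for comparison, *Tkr* was matched to no gene ID and so could not be compared. Among the rest, 14, 12 and 9 had isoforms in heads, embryos and ovaries. Their median numbers of isoforms were 13, 3 and 6, beside 21, 14 and 3 for the members, so that the members' median was the lower one in ovaries. Their median numbers of terminal exons were 4, 2 and 2, beside 6.5, 4 and 3 for the members present and 1, 1 and 1 for all genes. Their median numbers of PASs were 3.5, 2 and 3, beside 12, 8 and 3 for the members. *lola* was the only one of the 15 with more than 7 terminal exons in an assembly. Over 12 counts (isoforms, TSSs, terminal exons and PASs in 3 tissues), the gene closest to *fru* by distance on the log2(count + 1) scale was *pros* (0.79), followed for the other members by *RtGEF* for *br* (0.88), *Not1* for *ttk* (1.10), *PMCA* for *chinmo* (1.38), *SLO2* for *mamo* (1.54) and *CG34417* for *mod(mdg4)* (2.53). *pros* had 29, 2 and 0 isoforms in heads, embryos and ovaries, as against 23, 1 and 0 of *fru*. *CG34417* had 10, 9 and 7 terminal exons, fewer than *mod(mdg4)* in each tissue.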

How the data were processed

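Polyadenylated RNA of 15 libraries was converted to cDNA, amplified (14 cycles, 12 min extension) and sequenced on nanopore devices. Per the labels, 13 libraries were size-selected above 3 kb, and 2 of the heads libraries were not. The authors pooled the replicates of a tissue, mapped with minimap2 to dm6 (named in the submitters' processing notes) and built isoforms with FLAIR. The deposited values used here are genomic positions of exons in 3 assemblies, with no counts, so depth per library is unknown. The study describes limiting its assemblies to 3′ ends with evidence from other poly(A) methods. Its final set, pooled over all tissues, has fewer isoforms than the 74482 listed here for heads. The heads list is therefore not that final set. The sources do not state whether the files used here were made before that step, so their 3′ ends are not taken as checked by it. The first base of most isoforms is listed 1 above the annotated one (53513 of 74482 in heads); positions are printed as deposited, and sequences were corrected for this.

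Positions were compared with Ensembl release 115 in Python 3.11.15, plots were drawn with matplotlib 3.10.9, and the scripts were tested on simulated data. Isoforms were taken by gene ID. The nearest gene had the smallest Euclidean distance over 12 counts. C2H2 fingers were counted by pattern in the translated frame. All 6 members, the BTB list, *lola* and the nearest genes are named. Members and lists were chosen with earlier results of these data known. Alternatives covered end windows, end filters, stop codon choice and shared introns.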

Additional observations from a re-analysis of the deposited data

How the results depend on the processing

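Across 33 results, 137 of 159 alternative values stayed close to the value reported and 22 moved further, the limit being 1.5 times for counts and medians and the exact 95% binomial interval for percentages. Keeping only 3′ ends within 150 nt of an annotated end moved most: heads, embryos and ovaries then held 68, 34 and 26 isoforms of the 6 genes, 25, 15 and 19 terminal exons and 24, 16 and 19 PASs, with 34 and 20 combinations of TSS and terminal exon in heads and embryos. Last exons grouped by overlap gave 26 in heads. With AATAAA ends only, more distal ends were found in heads than in embryos for 3 of 9 exons (0 the other way), in heads than in ovaries for 3 of 10, in embryos than in ovaries for 2 of 10 and in ovaries than in embryos for 1 of 10. With differences over 300 nt, the count for embryos over heads was 0, and without A-rich ends that for ovaries over embryos was 0 of 14. Shares over all shared terminal exons were not computed under these alternatives. The heads median 3′ UTR was 655.5 nt with the most downstream stop codon. With 10 A in 20 nt, A-rich ends made up 35.5% in heads, and 23.3% in embryos and 27.3% in ovaries, over 1.5 times the values reported though inside their wide intervals. In ovaries, 0 of 16 *mod(mdg4)* isoforms with annotated ends had a stop codon before the last intron, an alternative chosen, with the others on this share, after seeing the data. The cause of these shifts was not tested, apart from the smaller sets that the filters leave. No paired analysis was possible because the replicates of each tissue were pooled into 1 assembly, and for the same reason no replicate could be left out.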
